A study of Mus musculus with 9 samples.

Results

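The mitochondrially encoded genes were described in 9 heart ventricle libraries of neonatal CD-1 mice from 3 surgical groups. The members are the 37 genes, of 39171 in the authors' deposited table of resection against sham, whose symbol begins with mt-, namely 13 mRNAs, 2 rRNAs and 22 tRNAs. They were chosen by symbol, without use of their measured values. The groups were 3 libraries after a sham operation, 3 after apical resection, which removes the tip of the ventricle, and 3 after apical resection with transection of the left vagus nerve, called vagotomy here as in the labels. All pups were operated on at postnatal day 1 and killed at postnatal day 2, and Trizol was used to take total RNA from the frozen lower portion of the apex. Every vagotomy library therefore also carries a resection, and no group had vagotomy alone. The labels do not say whether the libraries of a group came from separate pups, so the p-values reflect no more than the spread between these samples, which may be technical.

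Mitochondrial DNA is a small circle that is transcribed on each strand as long precursors, in which tRNAs sit between most of the mRNAs and rRNAs. Cutting out the tRNAs releases the other RNAs, so the classes arise from shared precursors but then differ in stability, polyadenylation and decay. The mRNAs encode subunits of the respiratory chain and ATP synthase, on which the beating heart depends, and the rRNAs and tRNAs serve the ribosomes that translate them inside the organelle.

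The sequences shown are those of the tRNAs on which the comparisons turn, from GENCODE M21 on GRCm38, read 5′ to 3′ on the transcribed strand, with T for U and the anticodon in capitals. mt-Tn and mt-Tp passed the test in vagotomy against resection, and mt-Tc, mt-Ty, mt-Tl2 and mt-Tt passed it against sham alone. mt-Ta had the highest FPKM of the tRNAs with usable estimates. mt-Tw was the only quantified tRNA whose fitted log2 difference in vagotomy against resection was not negative.
mt-Ta: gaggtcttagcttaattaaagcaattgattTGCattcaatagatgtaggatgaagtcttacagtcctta
mt-Tn: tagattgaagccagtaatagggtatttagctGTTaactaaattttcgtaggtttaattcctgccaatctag
mt-Tc: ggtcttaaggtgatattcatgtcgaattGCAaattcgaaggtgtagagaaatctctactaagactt
mt-Ty: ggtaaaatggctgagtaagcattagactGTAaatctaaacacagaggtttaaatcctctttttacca
mt-Tp: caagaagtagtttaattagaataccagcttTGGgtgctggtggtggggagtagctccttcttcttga
mt-Tl2: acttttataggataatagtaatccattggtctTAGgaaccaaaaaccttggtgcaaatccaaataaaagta
mt-Tt: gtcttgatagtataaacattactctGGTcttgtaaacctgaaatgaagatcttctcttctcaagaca
mt-Tw: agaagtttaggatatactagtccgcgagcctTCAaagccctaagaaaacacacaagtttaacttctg
mt-Tw, mt-Ta, mt-Tn, mt-Tc and mt-Ty are neighbours. mt-Tw lies at chrM:4950-5016 on the plus strand, and the next genes lie on the minus strand at chrM:5018-5086 (mt-Ta), chrM:5089-5159 (mt-Tn), chrM:5192-5257 (mt-Tc) and chrM:5260-5326 (mt-Ty). mt-Tl2 at chrM:11671-11741 and mt-Tt at chrM:15289-15355 are on the plus strand, and mt-Tp at chrM:15356-15422 is on the minus strand. Each of the 22 tRNA genes is a single exon with no coding part.

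Not every member could be measured. The deposited matrix of values per library, in FPKM (fragments normalized to transcript length and to the mapped fragments of a library), held 28 of the 37 members, that is 6 mRNAs, 2 rRNAs and 20 tRNAs. The authors' deposited tables marked 11 members as having too many fragments to quantify in at least 1 comparison, 8 of them mRNAs (mt-Nd1, mt-Co1, mt-Co2, mt-Atp8, mt-Atp6, mt-Co3, mt-Nd4l and mt-Nd4) and 3 of them tRNAs (mt-Ti, mt-Tq and mt-Ts1). In those tables mt-Co2, mt-Atp8, mt-Atp6 and mt-Co3, which encode 2 subunits of cytochrome oxidase and 2 of ATP synthase, were listed at 0 in all 3 groups. mt-Nd1 was listed at 0 for sham and at 17520 FPKM for resection, and mt-Nd4 at 0 and 10831 FPKM, with the sham value a failed estimate in each case. No fold change was taken from such values.

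mt-Co1, which encodes the catalytic core of cytochrome oxidase, was listed at 0 in all 3 sham libraries. It stood at 8859, 15284 and 7632 FPKM after resection and at 10042, 7822 and 4063 FPKM after vagotomy, and those ranges overlapped. In the authors' deposited table of vagotomy against resection its group values were 7272 and 10574 FPKM, with a q-value of 0.588. Its neighbour mt-Ts1, a serine tRNA in the same deposited locus, was also listed at 0 in all 3 sham libraries. It had 263383, 168381 and 24758 FPKM after resection and 14430, 16616 and 17179 FPKM after vagotomy, so that every vagotomy library lay below every resection library, while the authors' deposited table gave a q-value of 0.438. A further 4 tRNAs, mt-Tf, mt-Td, mt-Tk and mt-Tr, were listed at 0 in all 3 vagotomy libraries and are given by library below. That left 22 members with usable estimates in all groups, 5 mRNAs, 2 rRNAs and 15 tRNAs, and the counts of changed members refer to these.

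**Figure D1:**
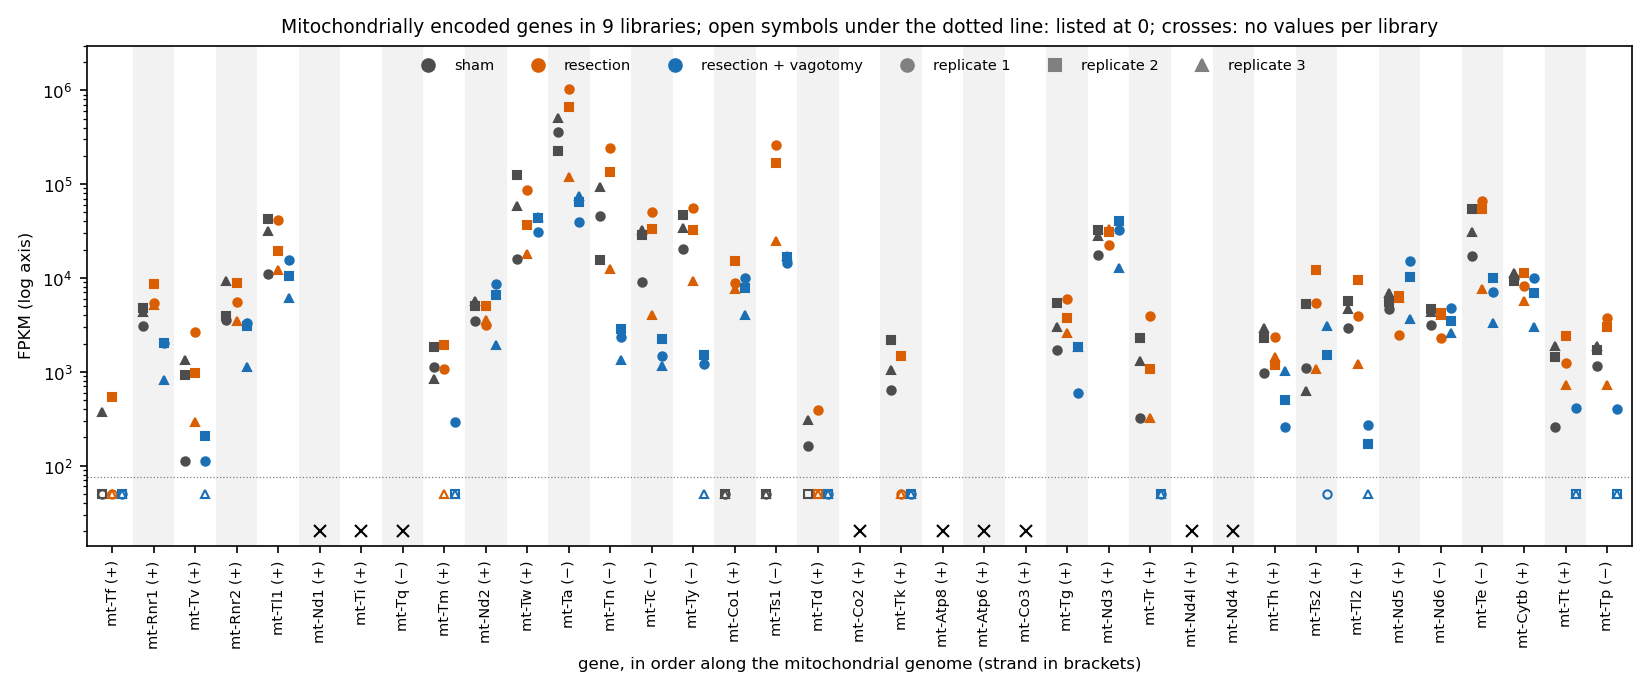
FPKM on a log axis for each mitochondrially encoded gene, in gene order along the mitochondrial genome with the strand in brackets; each symbol is 1 library, coloured by group and shaped by replicate number. Open symbols under the dotted line mark values listed at 0 and crosses mark the 9 genes without values per library; vagotomy libraries lie low for most tRNAs and for mt-Rnr1, while the mRNAs mt-Nd2, mt-Nd3, mt-Nd5, mt-Nd6 and mt-Cytb overlap between groups.

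The mRNAs with usable estimates did not pass the test in any comparison. They were tested with limma on log2(FPKM + 1), in a fit of all 9 libraries and 13249 genes with Benjamini-Hochberg adjustment and a threshold of 0.05. In vagotomy against resection 0 of 5 passed, where 1.97% of all tested genes were called higher and 1.55% lower. At an unadjusted p under 0.05, 0 of 5 passed too, where 13.1% of all tested genes were higher and 11.1% lower. The smallest adjusted p was 0.402 in that comparison, 0.337 in vagotomy against sham and 1 in resection against sham. These p-values do not show that the levels were equal, since the vagotomy libraries spread widely. Nuclear copies of at least 95% identity are annotated for 10 of the 37 members, mt-Nd2, mt-Nd3 and mt-Nd5 among them, and how shared reads were divided is not given in the sources used here.

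mt-Nd3, which encodes a subunit of complex I, had the highest FPKM of the 5 mRNAs with usable estimates in every library. Its values were 17414, 32522 and 27856 in sham, 22357, 30587 and 33353 in resection and 32290, 40241 and 12613 in vagotomy. The vagotomy group thus held both the highest value and the lowest. Its log2 difference was -0.16 (SE 0.57) in vagotomy against resection.

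mt-Nd5, another complex I subunit, stood at 4640, 5507 and 6972 FPKM in sham, 2452, 6346 and 6115 in resection and 15189, 10310 and 3635 in vagotomy. Vagotomy replicates 1 and 2 exceeded all other libraries and replicate 3 fell within the range of resection. The log2 difference of vagotomy against resection was 0.86 (SE 0.59, limma adjusted p 0.402). mt-Nd2, also of complex I, likewise had its 2 highest values in vagotomy replicates 1 and 2 and its lowest in vagotomy replicate 3, with 3519, 5061 and 5716 FPKM in sham, 3154, 5019 and 3555 in resection and 8609, 6556 and 1944 in vagotomy.

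mt-Cytb, the cytochrome b of complex III, stood at 9870, 9261 and 11236 FPKM in sham, 8168, 11296 and 5713 in resection and 9968, 6971 and 3001 in vagotomy. Its log2 difference of vagotomy against sham, -0.77 (SE 0.51), was the largest decrease among the 5 mRNAs in any comparison and did not pass the test (limma adjusted p 0.337). mt-Nd6, the complex I subunit encoded on the minus strand opposite the end of mt-Nd5, had 3152, 4617 and 4331 FPKM in sham, 2305, 4264 and 4015 in resection and 4729, 3467 and 2561 in vagotomy. Vagotomy replicate 3 was the lowest vagotomy library for each of the 6 mRNAs, mt-Co1 included.

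Summed over the 5 mRNAs, the level was 38594, 56968 and 56111 FPKM in sham, 38436, 57512 and 52751 in resection and 70786, 67543 and 23754 in vagotomy. The mean log2 difference of this sum was -0.01 in vagotomy against resection and -0.03 in resection against sham. With vagotomy replicate 3 left out the former became 0.50, so the average near 0 rests on that library.

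Ratios between mRNAs, which do not depend on how a library is scaled, were compared over the 10 pairs of the 5 mRNAs without a test. mt-Nd5 over mt-Cytb was 0.470, 0.595 and 0.621 in sham, 0.300, 0.562 and 1.07 in resection and 1.52, 1.48 and 1.21 in vagotomy. All 3 vagotomy libraries lay above the other 6. mt-Nd2 over mt-Cytb behaved alike, at 0.864, 0.941 and 0.648 in vagotomy against 0.357 to 0.547 in sham and 0.386 to 0.622 in resection. These were the 2 of 10 mRNA pairs that were higher without overlap in vagotomy than in both other groups. In the other direction, 1 of 10 pairs was lower without overlap in vagotomy against resection, mt-Nd3 over mt-Nd5. Against sham it was also 1, mt-Nd2 over mt-Nd5. Of all single genes, 14% were higher without overlap in vagotomy against resection, and 19.7% against sham. Those shares are no direct measure for ratios, whose direction depends on which gene is written first.

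**Figure D2:**
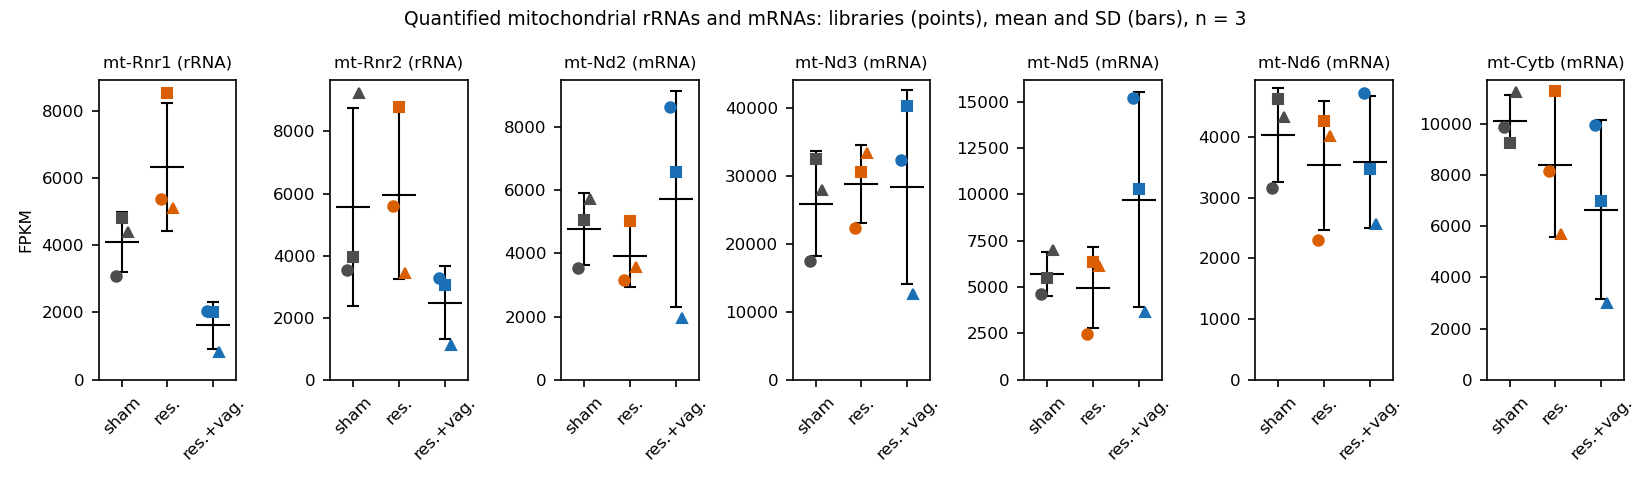
FPKM of the 2 rRNAs and the 5 mRNAs with usable estimates; points are libraries (circle, square and triangle for replicates 1, 2 and 3), the horizontal bar is the mean and the error bar the SD of 3 libraries. The vagotomy points of mt-Rnr1 and mt-Rnr2 lie below all points of the other groups, and those of the mRNAs span or overlap them.

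The rRNAs were lower after vagotomy. mt-Rnr1 encodes the 12S rRNA of the small subunit of the mitochondrial ribosome. It stood at 3090, 4799 and 4384 FPKM in sham, 5361, 8521 and 5108 in resection and 2031, 2013 and 817 in vagotomy. The means were 4091 ± 891, 6330 ± 1902 and 1620 ± 695 FPKM (SD, n = 3), and no group overlapped another. mt-Rnr1 fell in vagotomy against resection by 2.04 on the log2 scale (SE 0.46, limma adjusted p 0.0407), and the authors' deposited table gave a q-value of 0.000995. Against sham its difference of -1.43 did not pass the test (limma adjusted p 0.0698). After resection its values were higher than in every sham library, a log2 difference of 0.61 with an adjusted p of 1. The share of all genes that were higher without overlap in resection against sham was 6.36%.

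mt-Rnr2, the 16S rRNA of the large subunit, stood at 3532, 3949 and 9250 FPKM in sham, 5606, 8774 and 3438 in resection and 3278, 3067 and 1122 in vagotomy. Each vagotomy library lay below every library of the other groups, by a small margin for replicate 1. The log2 difference was -1.30 (SE 0.58) against resection and -1.17 (SE 0.58) against sham, and neither passed the test (limma adjusted p 0.199 and 0.198). In the authors' deposited table the q-value against resection was 0.0685. Both rRNAs were thus lower without overlap in vagotomy against resection, where 12.2% of all genes were, and in vagotomy against sham, where 17% were.

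The rRNAs were also set against the mRNAs of the same library. The sum of the 2 rRNAs over the sum of the 5 mRNAs was 0.172, 0.154 and 0.243 in sham, 0.285, 0.301 and 0.162 in resection and 0.0750, 0.0752 and 0.0816 in vagotomy. The 3 vagotomy libraries lay close together, also replicate 3, whose mRNA and rRNA levels were both low. The mean ratio was 3.23-fold lower than in resection and 2.45-fold lower than in sham. Each of the 5 ratios of mt-Rnr1 to an mRNA was lower in every vagotomy library than in all 6 others. Of the 11 ratios with an rRNA, 10 to mRNAs and mt-Rnr1 over mt-Rnr2, 10 were lower without overlap in vagotomy against resection and 8 against sham. Of all single genes, 12.2% and 17% were. The exception in the former was mt-Rnr2 over mt-Nd6, and those in the latter were mt-Rnr1 over mt-Rnr2, mt-Rnr2 over mt-Nd6 and mt-Rnr2 over mt-Cytb. In resection against sham, 0 of the 11 were lower without overlap (4.45% of all single genes were). In that comparison 3 were higher (6.36% of all single genes were), namely mt-Rnr1 over mt-Nd2, mt-Nd6 and mt-Cytb. The 11 ratios reuse the same 2 rRNAs and 5 mRNAs and are not independent of each other. Shares of single genes are no direct measure for such ratios. The comparisons with resection share the resection libraries and are not independent of each other either.

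**Figure D3:**
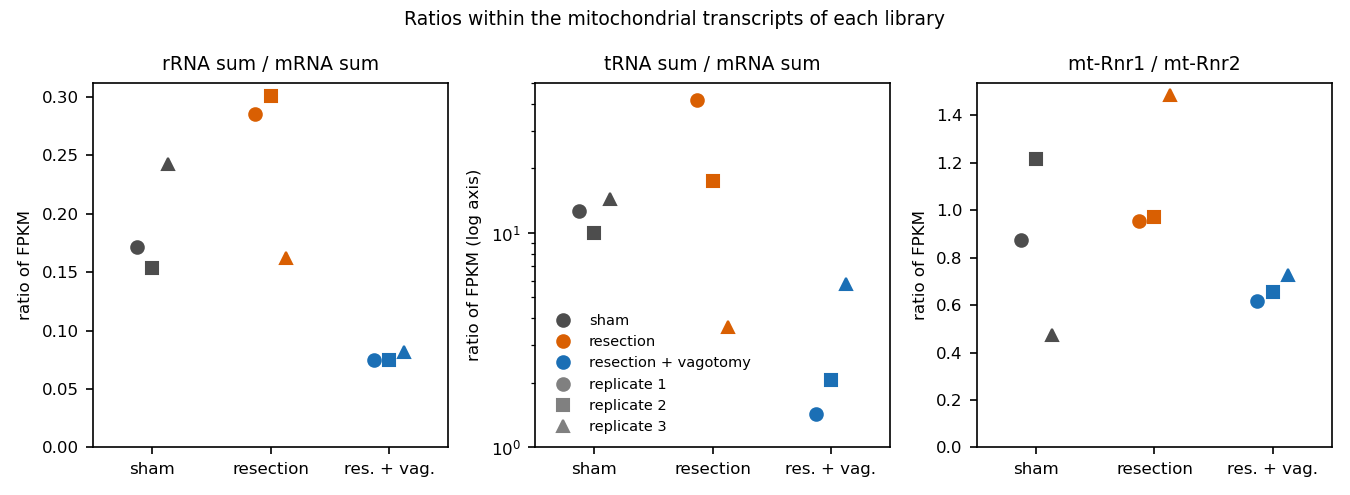
Ratios of FPKM within each library, as the sum of 2 rRNAs over the sum of 5 mRNAs (left), the sum of tRNAs over the sum of 5 mRNAs on a log axis (middle) and mt-Rnr1 over mt-Rnr2 (right); each point is 1 library. In the left panel the vagotomy libraries sit at 0.0750 to 0.0816, under all others, whereas in the middle panel resection replicate 3 at 3.65 lies within the vagotomy range of 1.42 to 5.76.

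Most tRNAs had lower levels after vagotomy. In vagotomy against resection the difference was negative for 14 of the 15 quantified tRNAs, with a median of -4.26 on the log2(FPKM + 1) scale, while the median of all tested genes was 0.02. Values of 0 make that median depend on the pseudocount: as log2 ratios of the group means the median was -3.35, and for the 8 tRNAs above 0 in all 9 libraries it was -1.96 on the log2(FPKM + 1) scale. Without overlap of the libraries, 10 of 15 were lower (12.2% of all genes were): mt-Tv, mt-Ta, mt-Tn, mt-Tc, mt-Ty, mt-Tg, mt-Th, mt-Tl2, mt-Tt and mt-Tp. After adjustment over all genes, 2 tRNAs passed, mt-Tn and mt-Tp, and 11 were lower at an unadjusted p under 0.05, where 11.1% of all genes were lower and 13.1% higher. With mt-Rnr1, 3 of 22 members therefore fell, 0 rose, and 1.55% of all genes fell. The authors' deposited table called 7 tRNAs lower at a q under 0.05, of 18 with an OK status, where 8.56% of all genes with that status were called lower. These were mt-Tl1, mt-Ta, mt-Tn, mt-Tc, mt-Ty, mt-Tr and mt-Te.

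The limma calls of this comparison depend on single libraries. None of the 22 members passed without sham replicate 2 or 3, resection replicate 1 or 2, or vagotomy replicate 2 or 3, nor in a fit of only the 6 libraries compared, while 1 passed without sham replicate 1, 2 without vagotomy replicate 1 and 4 without resection replicate 3. The adjusted p of mt-Rnr1 ranged from 0.0283 to 0.154 over all alternatives, that of mt-Tn from 0.00899 to 0.132 and that of mt-Tp from 4.06e-05 to 0.159. With the replicate number as a block, 6 members passed in place of 3, mt-Rnr1, mt-Tn, mt-Tc, mt-Ty, mt-Tl2 and mt-Tp. Such a pairing is not stated in the labels.

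mt-Ta, the alanine tRNA, had the highest FPKM in every library among the genes with values per library. It stood at 361667, 227081 and 511102 FPKM in sham, 1026210, 659009 and 120254 in resection and 39861, 64208 and 74442 in vagotomy. Members with failed estimates cannot be ranked beside mt-Ta, and FPKM divides by its length of only 69 bases. Vagotomy lay below both other groups without overlap, and within resection replicate 3 stood far below replicates 1 and 2. The log2 difference of vagotomy against resection was -2.91 (SE 0.87) and did not pass the limma test (adjusted p 0.0836), whereas the authors' deposited table gave a q-value of 0.000995.

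mt-Tn, the asparagine tRNA beside it, stood at 45187, 15550 and 92774 FPKM in sham, 243439, 134693 and 12496 in resection and 2374, 2883 and 1341 in vagotomy. It fell by 5.15 on the log2 scale against resection (SE 1.04, limma adjusted p 0.0337) and by 4.26 against sham (SE 1.04, limma adjusted p 0.0321). The lowest library outside vagotomy, resection replicate 3, was still above the highest vagotomy library.

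mt-Tc, the cysteine tRNA, had 9010, 28403 and 32830 FPKM in sham, 49856, 33171 and 4020 in resection and 1489, 2258 and 1141 in vagotomy. It fell by 3.70 on the log2 scale against sham (SE 0.88, limma adjusted p 0.0307), and its difference of -3.59 against resection missed the threshold (limma adjusted p 0.0537). mt-Ty, the tyrosine tRNA, had 20371, 46659 and 33725 FPKM in sham, 56067, 32699 and 9377 in resection, and 1203, 1515 and 0 in vagotomy. It passed the test against sham (limma adjusted p 0.0474) and not against resection (limma adjusted p 0.0769). Because 1 of its vagotomy values is 0, the size of its fitted change depends on the pseudocount and is not given. The 4 tRNAs from mt-Ta to mt-Ty form a run on the minus strand, and in all 4 each vagotomy library lay below the 6 others. Of all genes, 12.2% were lower without overlap in vagotomy against resection and 17% against sham. The same separation from both groups was seen outside the run in mt-Tl2 and mt-Tp.

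mt-Tw, the tryptophan tRNA at the plus-strand end of that run, did not show this separation. It had 15959, 126605 and 58140 FPKM in sham, 85843, 36266 and 18033 in resection and 31086, 43421 and 44692 in vagotomy. Its vagotomy values lay inside the ranges of both other groups, and its log2 difference against resection was 0.03 (SE 0.82). As a log2 ratio of group means that difference was -0.23, and the log2 difference against sham was -0.32 (SE 0.82). mt-Tl1 and mt-Ts2 also overlapped in every comparison. The deposited locus of mt-Tw is shared with mt-Nd2, whose annotated end overlaps it. Whether mt-Tw differed from its neighbours was not tested.

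mt-Te, the glutamate tRNA on the minus strand between mt-Nd6 and mt-Cytb, stood at 17163, 53849 and 31261 FPKM in sham, 65542, 53708 and 7663 in resection and 7041, 10052 and 3272 in vagotomy. Its log2 difference of -2.29 against resection did not pass the limma test (adjusted p 0.136). mt-Tl1, the leucine tRNA that follows mt-Rnr2, had 11029, 42098 and 32002 FPKM in sham, 41136, 19397 and 12198 in resection and 15412, 10491 and 6073 in vagotomy, with a log2 difference of -1.10 (SE 0.67, limma adjusted p 0.341). For these 2 tRNAs the vagotomy and resection libraries overlapped, through resection replicate 3 in each case.

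The proline and threonine tRNAs lie next to each other on opposite strands after mt-Cytb. mt-Tp had 1161, 1707 and 1862 FPKM in sham, 3744, 2973 and 721 in resection, and 397, 0 and 0 in vagotomy, and it passed the test against resection (limma adjusted p 0.0447) and sham (limma adjusted p 0.0313). mt-Tt had 256, 1423 and 1862 FPKM in sham, 1234, 2378 and 721 in resection, and 407, 0 and 0 in vagotomy. It passed against sham (limma adjusted p 0.0471), although sham replicate 1 lay below vagotomy replicate 1, and not against resection (limma adjusted p 0.0597). The 2 genes have the same length of 67 bases, and their values were identical in sham replicate 3 and in resection replicate 3.

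mt-Tl2, the other leucine tRNA, had 2953, 5620 and 4708 FPKM in sham, 3954, 9564 and 1225 in resection, and 271, 170 and 0 in vagotomy. It passed against sham (limma adjusted p 0.0349) and not against resection (limma adjusted p 0.0602). mt-Tr, the arginine tRNA, had 321, 2292 and 1302 FPKM in sham and 3929, 1070 and 325 in resection, and was listed at 0 in all 3 vagotomy libraries. It is therefore not among the counted members, although limma gave adjusted p-values of 0.000355 against resection and 0.000305 against sham. The lysine tRNA mt-Tk had 641, 2160 and 1040 FPKM in sham, 0, 1488 and 0 in resection, and 0 in all 3 vagotomy libraries. It is not counted either, with limma adjusted p-values of 0.356 against resection and 0.023 against sham. mt-Tf and mt-Td, for phenylalanine and aspartate, reached at most 535 and 388 FPKM in any library and were at 0 in several sham and resection libraries too.

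The glycine and histidine tRNAs had smaller differences. mt-Tg stood at 1692, 5348 and 2976 FPKM in sham, 5975, 3746 and 2602 in resection and 594, 1816 and 1819 in vagotomy, with a log2 difference of -1.63 (SE 0.58, limma adjusted p 0.126) against resection. mt-Th stood at 975, 2276 and 2897 FPKM in sham, 2325, 1189 and 1443 in resection and 261, 505 and 1016 in vagotomy, also with -1.63 (SE 0.56, limma adjusted p 0.119). The valine tRNA mt-Tv, between the rRNAs, had 112, 917 and 1345 FPKM in sham, 2673, 968 and 295 in resection, and 113, 205 and 0 in vagotomy. mt-Tm for methionine had 1117, 1833 and 840 FPKM in sham, 1076, 1935 and 0 in resection, and 295, 0 and 0 in vagotomy. mt-Ts2, the other serine tRNA, overlapped in every comparison, with 1106, 5310 and 629 FPKM in sham, 5400, 12259 and 1071 in resection, and 0, 1522 and 3077 in vagotomy.

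In vagotomy against sham, all 15 quantified tRNAs had a negative log2 difference, with a median of -3.70 against 0.03 for all tested genes. The median was -2.90 as log2 ratios of group means and -2.09 for the 8 tRNAs above 0 in all 9 libraries. Of the 15, 6 fell after adjustment, mt-Tn, mt-Tc, mt-Ty, mt-Tl2, mt-Tt and mt-Tp, and no rRNA or mRNA passed, where 4.26% of all genes fell. Without overlap, 8 of 15 tRNAs were lower (17% of all genes were). No member passed without sham replicate 2 or without sham replicate 3, and 2 passed without sham replicate 1, without vagotomy replicate 2, without vagotomy replicate 3 or in a fit of the 6 libraries alone. The vagotomy libraries are the same as in the comparison with resection, so the values are set side by side and are not independent.

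In resection against sham, 0 of 22 members passed, where 0.287% of all genes were called higher and 0.00755% lower. At an unadjusted p under 0.05, 0 of 22 passed too, where 3.68% of all genes were higher and 2.21% lower. The median log2 difference of the 15 tRNAs was -0.03, with 8 negative and 7 positive, whereas the median of their log2 ratios of group means had the other sign, at 0.30. The authors' deposited table called mt-Ta (q-value 0.0211) and mt-Tn (q-value 0.00161) higher after resection, of 19 tRNAs with an OK status, where 4.18% of all genes with that status were called higher; 0 members were called lower, where 1.93% of all genes were. For each of the 2 the resection libraries spanned the sham range, with replicates 1 and 2 above all sham libraries and replicate 3 below all of them. The log2 difference of mt-Ta by limma, 0.32, became 1.24 without resection replicate 3 and -0.30 without resection replicate 1.

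By strand, the 6 quantified tRNAs of the minus strand all had negative differences in vagotomy against resection, with a median of -4.37 (-4.19 as log2 ratios of group means), and 5 of them were lower without overlap. On the plus strand 8 of 9 were negative, with a median of -4.26 (-2.03 as log2 ratios of group means), and 5 were lower without overlap, where 12.2% of all genes were. The 2 called tRNAs are both on the minus strand. mt-Tr, on the plus strand, is outside the counted tRNAs because it was listed at 0 in all 3 vagotomy libraries. With those values it had a limma adjusted p of 0.000355 in vagotomy against resection. Against sham, 6 of 6 on the minus strand and 2 of 9 on the plus strand were lower without overlap, where 17% of all genes were, a share near that of the plus strand. A difference between the strands was not tested, and because the strand setting of the libraries and of the counting is not given in the sources used here, reads of a tRNA cannot be told apart from reads of a precursor of the opposite strand.

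Summed over the 19 tRNAs without the authors' failure mark, the level was 12.7, 9.99 and 14.5 times the mRNA sum in sham, 41.6, 17.5 and 3.65 times in resection and 1.42, 2.06 and 5.76 times in vagotomy. Vagotomy lay under sham without overlap, and overlapped with resection through resection replicate 3. The tRNA sum rests largely on mt-Ta. That gene alone made up 39.9% to 73.7% of it in sham, 62.5% to 65.4% in resection and 39.5% to 54.4% in vagotomy. With mt-Co1 and mt-Ts1 left out of every library because they were listed at 0 in sham, the quantified mitochondrial genes made up 51.4% to 59.3% of the remaining summed FPKM of a sham library, 34.4% to 73.5% of a resection library and 21.4% to 31.6% of a vagotomy library. The number of the 19 tRNAs listed at 0 was 1, 2 and 0 in sham, 2, 1 and 4 in resection and 5, 7 and 10 in vagotomy.

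Short nuclear RNAs are given beside the mitochondrial tRNAs. Of 191 tested nuclear genes of at most 200 bases, 102, 93 and 70 were listed at 0 in the sham libraries, 105, 93 and 118 in resection and 136, 131 and 153 in vagotomy, so that all 3 vagotomy libraries had more such genes than any other. Their summed level was 32781, 206718 and 211618 FPKM in sham, 186281, 379741 and 82172 in resection and 27594, 39257 and 81780 in vagotomy. Vagotomy overlapped with sham and lay below resection, with vagotomy replicate 3 just under resection replicate 3. In vagotomy against resection 13 of the 191 fell and 1 rose by limma, where 1.55% of all genes fell and 1.97% rose. The log2 difference was negative for 113 of the 191, with a median of -1.28 against 0.02 for all tested genes. By kind, and with no test between the kinds, the median was -1.63 for 74 snoRNAs, of which 6 fell, -1.66 for 30 snRNAs, of which 4 fell, and 0 for 55 miRNAs, of which 1 fell. For the 43 short genes of at most 80 bases the median was -2.75 and 2 fell. In resection against sham 0 of 191 passed and the median was 0. Rn7sk, the nuclear 7SK RNA of 331 bases that carries no poly(A) tail and was chosen after its values were seen, stood at 23.7, 12.7 and 16.6 FPKM in sham, 54.5, 25.2 and 9.77 in resection and 5.40, 8.27 and 9.66 in vagotomy, again with a low resection replicate 3. Rn7sk did not pass in any comparison (limma adjusted p 0.107 in vagotomy against resection and 0.183 in vagotomy against sham). The part of short or unpolyadenylated RNA recovery in the tRNA and rRNA results was not tested.

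**Figure D4:**
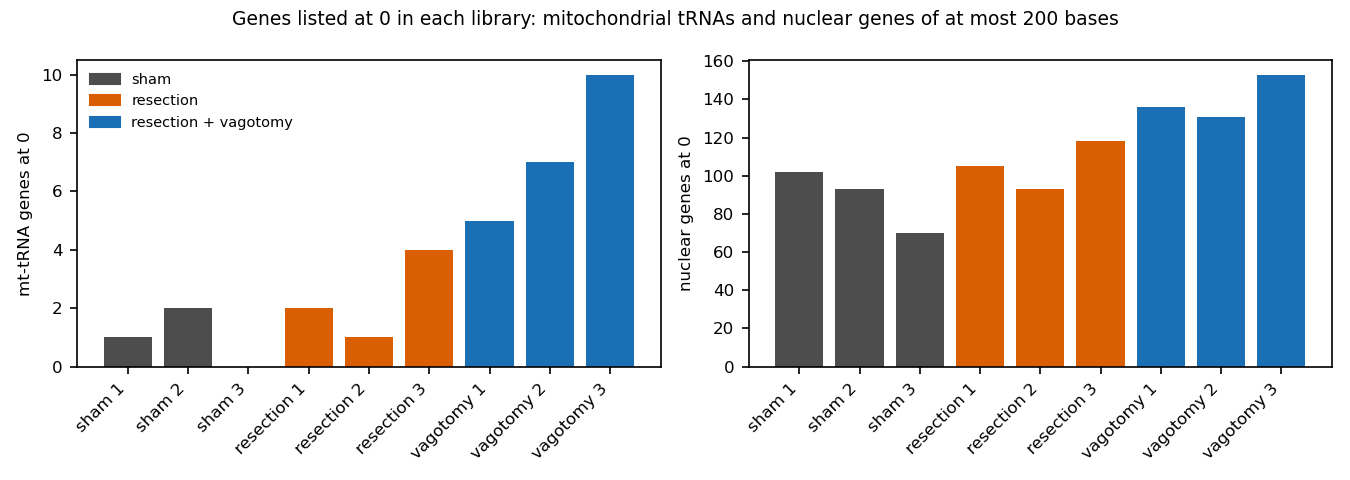
Number of genes listed at 0 in each of the 9 libraries, for the 19 mitochondrial tRNAs without the authors' failure mark (left) and for 191 nuclear genes of at most 200 bases (right); bars are single libraries coloured by group. In both panels the 3 vagotomy libraries are the highest, at 5, 7 and 10 tRNAs and at 136, 131 and 153 nuclear genes.

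The makeup of the tissue is given beside these results, and its part in them was not tested. In bulk tissue, fewer cells of a type and less RNA per cell cannot be told apart. The defining genes of heart muscle cells, the cells richest in mitochondria, were all 10 detected, with a summed level of 22376 to 25185 FPKM in sham, 15195 to 25345 in resection and 18311 to 41210 in vagotomy. Their median log2 difference in vagotomy against resection was 0.18, with 1 of 10 higher and 2 lower by limma, where 1.97% of all genes were higher and 1.55% lower. In that comparison 1 of 5 neutrophil and 1 of 5 endothelial genes were lower, and no macrophage, erythroid or fibroblast gene passed. In vagotomy against sham, 7 of 9 macrophage, 3 of 5 neutrophil and 1 of 10 heart muscle genes were higher, where 5.81% of all genes were. Lower were 2 of 10 heart muscle and 1 of 5 endothelial genes, where 4.26% of all genes were. In resection against sham, 4 of 9 macrophage and 1 of 5 neutrophil genes were higher, where 0.287% of all genes were. The 10 monocyte and macrophage symbols held Adgre1 and its older name Emr1, of which only Emr1 was listed. The 9 listed genes had sums of 33.7 to 67.7 FPKM in sham, 324 to 592 in resection and 466 to 1005 in vagotomy. Neutrophil genes, 5 of 6 listed, summed to 17.9 to 40.9, 195 to 280 and 106 to 300 FPKM. Erythroid genes, 5 of 6 listed, summed to 405 to 1253, 724 to 4052 and 245 to 545 FPKM. Fibroblast genes (5 of 5) summed to 1227 to 1883, 1139 to 1386 and 990 to 1089 FPKM, and endothelial genes (5 of 5) to 244 to 331, 282 to 325 and 265 to 323 FPKM.

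The nuclear genes that copy, transcribe, process and translate the mitochondrial genome were described from 7 lists with 109 tested members. In resection against sham 0 of 109 passed by limma's test. In vagotomy against resection 2 rose and 0 fell, where 1.97% of all genes rose and 1.55% fell. In vagotomy against sham 5 rose and 5 fell, where 5.81% of all genes rose and 4.26% fell. The members' shares are close to those of all genes, so the genes named from these lists are given as single genes and not as a change of a list.

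Of the genes acting on mitochondrial tRNAs, the lists as a whole had medians near 0. In vagotomy against resection the median log2 difference was -0.02 for the synthetases and -0.06 for the modification genes, and against sham it was -0.04 and -0.08. Trmu, the enzyme that thiolates the wobble base of several mitochondrial tRNAs, stood at 8.32, 8.60 and 8.31 FPKM in sham, 9.57, 6.36 and 11.9 in resection and 21.6, 22.3 and 19.1 in vagotomy, so that the vagotomy libraries lay above all others. It rose by 1.13 on the log2 scale against resection (SE 0.25, limma adjusted p 0.0388) and by 1.22 against sham (limma adjusted p 0.0185). Cars2, which charges mt-Tc with cysteine, stood at 5.16 ± 1.21, 5.13 ± 1.48 and 12.6 ± 2.12 FPKM in sham, resection and vagotomy (SD, n = 3, and the same order below) and rose against resection by 1.16 (SE 0.27, limma adjusted p 0.0451). Of the 16 tested genes of tRNA modification, 3 rose against sham, Trmu, Gtpbp3 and Pus1, and 0 fell, where 5.81% of all genes rose and 4.26% fell. Of the 21 tested synthetase genes, 2 rose against sham, Cars2 and Lars2, which charges the leucine tRNAs, and 0 fell, against the same shares. Yars2, the synthetase for mt-Ty, was listed at 24.2 ± 8.99, 20.2 ± 2.79 and 10.4 ± 2.69 FPKM and did not pass against resection (limma adjusted p 0.124).

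Of the 21 tested genes of mitochondrial RNA processing, polyadenylation and decay, 3 fell in vagotomy against sham, Pnpt1, Slirp and Fastkd5, where 4.26% of all genes fell, and 0 passed against resection. The median log2 difference of the list against sham was -0.45. Pnpt1, the polynucleotide phosphorylase of the mitochondrial RNA degrading complex, stood at 52.7 ± 5.55 FPKM in sham, 22.3 ± 4.57 in resection and 19.2 ± 3.39 in vagotomy, and fell by 1.42 on the log2 scale against sham (SE 0.25, limma adjusted p 0.0126). It was already lower without overlap in resection (log2 difference -1.22, limma adjusted p 0.0869). Slirp, an RNA-binding partner of Lrpprc in the stability of mitochondrial mRNAs, stood at 56.2 ± 23.2, 44.9 ± 18.2 and 15.9 ± 9.89 FPKM. Lrpprc itself stood at 90.0 ± 11.3, 60.0 ± 23.5 and 75.5 ± 28.8 FPKM and did not pass in any comparison.

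Of the 8 tested transcription genes, 1 fell in vagotomy against sham, where 4.26% of all genes fell. Mterfd1, a member of the mitochondrial termination factor family, stood at 35.4 ± 6.75, 30.8 ± 8.51 and 13.5 ± 3.53 FPKM and fell by 1.34 on the log2 scale (SE 0.29, limma adjusted p 0.0240). Polrmt, the mitochondrial RNA polymerase, stood at 8.52 ± 4.11, 8.61 ± 2.60 and 19.2 ± 4.51 FPKM, with every vagotomy library above all others, and missed the threshold against sham (limma adjusted p 0.0539) and resection (limma adjusted p 0.0929). Tfam, which packages the mitochondrial genome and activates its promoters, stood at 29.9 ± 9.24, 27.9 ± 20.2 and 70.2 ± 42.6 FPKM and did not pass. None of the 13 tested replication and packaging genes and none of the 19 tested ribosome assembly and translation genes passed by limma in any of the 3 comparisons, the nearest being Nsun4, a methyltransferase of mitochondrial ribosome assembly, in vagotomy against resection (0.97, limma adjusted p 0.0504). Of the 11 tested regulators of mitochondrial biogenesis, 1 fell against sham, Yy1 (again beside 4.26% of all genes), while Ppargc1a, the coactivator known for driving mitochondrial biogenesis, stood at 39.5 ± 11.8, 42.9 ± 21.5 and 32.5 ± 6.26 FPKM and did not pass.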

How the data were processed

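Per the submitters' processing notes, TopHat2 2.0.9, Cufflinks 2.1.1 and Cuffdiff 2.1.1 were used with GRCm38. The deposited matrix holds FPKM for 14479 genes; the authors had added a pseudocount of 1, which was subtracted. The authors' deposited Cuffdiff tables hold group FPKM, p-values and q-values for resection against sham and vagotomy against resection. Library preparation followed standard Illumina protocols per the labels; poly(A) selection, rRNA removal and strand setting are not given in the sources used here. No counts were used, so depth is unknown. FPKM divides by length, so a fragment weighs more in a short gene.

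limma 3.58.1 (R 4.3.3) was fitted to log2(FPKM + 1) of all 9 libraries, with a mean per group, a variance trend, the 13249 genes whose mean reached 1 FPKM, two-sided tests, Benjamini-Hochberg adjustment and a threshold of 0.05. Fold changes on this scale understate the change of low genes. The script was tested on simulated data. With 3 libraries a group, the smallest p of exact permutation is 0.1. GENCODE M21 gave class, strand, position and sequence for 37 of 37 members, and blastn 2.17.0 found nuclear copies.

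All members are named; of each of the 7 lists, the 3 genes with the smallest F-test p, plus Polrmt, Tfam, Lrpprc and Ppargc1a, were eligible, and not all are printed. These lists and the genes named from them were chosen with earlier results of these data known, whereas the mt- genes were taken by symbol alone. Resection and vagotomy libraries with the same replicate number deviated together over all tested genes (r = 0.199, 0.141 and 0.117). The replicate block took equal numbers in all 3 groups as pairs. The labels do not state a pairing, and the correlations do not settle one. In the submitters' own library names, the number of replicate 3 differs between the groups. Alternatives were other pseudocounts, filters, scalings, fits, the replicate block, the authors' q-values and leaving out each library.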

Additional observations from a re-analysis of the deposited data

How the results depend on the processing

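The count of changed members was 0 in resection against sham, 3 in vagotomy against resection and 6 in vagotomy against sham. By the authors' q-values it was 2 in resection against sham and 7 in vagotomy against resection. Those 7 were mt-Rnr1, mt-Tl1, mt-Ta, mt-Tn, mt-Tc, mt-Ty and mt-Te. The authors' table also called mt-Tr lower (q-value 0.00682), which is outside the counted members. For vagotomy against resection it was 7 with a minimum mean of 5 FPKM, 1 after scaling to the nuclear sum, 0 with only the 6 libraries compared, 5 without the variance trend and 6 with the replicate block. For vagotomy against sham it was 2 with only the 6 libraries. Leaving out each library gave 0 to 0, 0 to 4 and 0 to 5 in the 3 comparisons. Over all genes the calls then ranged from 11 to 59, from 42 to 591 and from 100 to 1701. The replicate block changed no other count of members by over 1.5 times. Same-numbered sham libraries correlated with resection at 0.498, 0.197 and 0.0129 and with vagotomy at 0.186, 0.170 and -0.0193. Some of these values exceed those of resection with vagotomy, and not every library correlated best with its own number. The correlations therefore do not settle which libraries, if any, were paired. All log2 differences of mt-Rnr1, mt-Rnr2, mt-Tn and mt-Tc kept their sign in vagotomy against resection and against sham under every alternative run, while mt-Rnr1 passed in 7 of 20, mt-Tn in 12 and mt-Tp in 8 of 20 alternatives against resection. Quantile normalization sets mt-Ta to a difference of 0 by construction.

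Other differences changed sign under some alternatives, and the cause was not tested. In resection against sham, quantile normalization gave -0.038 for mt-Nd3, -0.40 for mt-Rnr2 and -0.23 for mt-Tn, and nuclear-sum scaling gave -0.024 for mt-Rnr2. Leaving out each library gave -0.086 to 0.36 for mt-Nd3, -0.54 to 0.15 for mt-Nd5, -0.39 to 0.056 for mt-Nd6, -0.20 to 0.57 for mt-Rnr2, -0.30 to 1.24 for mt-Ta and -0.21 to 0.15 for the summed mRNAs. In vagotomy against resection, quantile normalization gave 1.18 for mt-Nd3 and 0.56 for mt-Cytb, the nuclear sum 0.15 for mt-Nd3, the upper quartile -0.034 for mt-Nd6. Leaving out each library gave -0.10 to 0.97 for mt-Nd2, -0.49 to 0.35 for mt-Nd3, -0.25 to 0.25 for mt-Nd6 and -0.82 to 0.045 for mt-Cytb. The summed mRNAs gave 0.29 with the nuclear sum, 0.12 as a mean of log2 levels and -0.29 to 0.50 with a library left out. In vagotomy against sham, the upper quartile gave -0.050 for mt-Nd2 and -0.068 for mt-Nd3, quantile normalization 0.073 for mt-Nd6 and the nuclear sum 0.11 for the summed mRNAs. Leaving out each library gave -0.39 to 0.69 for mt-Nd2, -0.31 to 0.52 for mt-Nd3, -0.42 to 0.025 for mt-Nd6 and -0.31 to 0.47 for the summed mRNAs. Pseudocount 100 and counting the tRNAs listed at 0 in every vagotomy library were chosen after seeing the data and gave 2 and 4 changed members against resection. No Cuffdiff table of vagotomy against sham was used.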

Other observations

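Nuclear copies of mitochondrial genes carried values of their own, also where the member had none. At 95% identity or more, 11 annotated copies of 10 members were found, of which 5 were rows of the matrix. Gm13341, a copy of mt-Co2 at chr2:22587291-22587962 (95.9% identity over 684 bases), stood at 20.8, 30.8 and 31.9 FPKM in sham, 17.9, 22.4 and 11.9 in resection and 11.3, 11.1 and 8.60 in vagotomy. It was lower without overlap in vagotomy than in both other groups and passed the limma test against sham (log2 difference -1.33, adjusted p 0.0223). Its neighbour Gm13340, a copy of mt-Co1 at chr2:22588103-22589647 (97.6% identity over 1545 bases), stood at 5.53, 9.54 and 8.63 FPKM in sham, 5.24, 7.05 and 3.44 in resection and 4.02, 2.29 and 2.00 in vagotomy, with a log2 difference of -1.25 against sham (limma adjusted p 0.0370). The sham libraries thus held values for the copies although mt-Co1 was listed at 0 there and mt-Co2 was listed at 0 in all groups of the authors' deposited tables. Gm10222, identical to mt-Nd4l over 294 bases at chr1:24612407-24612700, stood at 2.91, 1.94 and 4.39 FPKM in sham, 0.396, 2.66 and 0 in resection and 1.38, 0 and 0 in vagotomy. Whether reads of these copies came from the nuclear or the mitochondrial genome cannot be told apart with the values used here.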
